A study of Drosophila melanogaster with 2 samples.

Results

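Multi-summit peaks were peaks of the irreproducible discovery rate (IDR) list whose interval shared at least 1 bp with the interval of another peak of that list. They were chosen by the intervals and summits of the list itself, so their overlap and their number describe the list and are not a test. The rule gave 647 of 8483 IDR peaks (7.63%), which formed 318 merged regions covering 190.23 kb. Of these regions, 308 held 2 summits, 9 held 3 and 1 held 4. The remaining 7836 IDR peaks overlapped no peak of the list and are called the other IDR peaks here.

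The lists came from chromatin immunoprecipitation with sequencing (ChIP-seq) of the protein CG15710 in whole Drosophila melanogaster pupae at 24 hours. All animals belonged to 1 group, a transgenic line with stable expression of CG15710 carrying GFP at its C-terminus, and males and females were pooled. Chromatin was sheared by sonication to a labelled size range of 200 to 800 bp, and the tagged protein was precipitated with an antibody to GFP. The labels give 2 biological replicates, numbered 1 and 3, each with a biosample of its own from the same line. The samples are whole animals, so the tissues and cell types that gave a peak cannot be told apart. The tagged gene itself carried 0 peaks of any list, and the nearest multi-summit region lay 192903 bp from it. The peak lists hold no read counts, and the depth of each library is unknown.

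In ChIP-seq, fragments that carry the protein pile up around its contact with DNA, and the caller marks the highest point of each pile as a summit. A regulatory region can hold several binding sites for the same protein, and neighbouring piles then merge into a region with more than 1 summit. Because each fragment is longer than the site it carries, sites that lie closer together than a fragment are hard to separate.

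The sequences below show the DNA under single regions whose spacing or base composition is described. They are examples, and the medians rest on all regions. The sequences were read from the RefSeq copy of assembly release 6 (dm6), and capitals mark the 21 bases centred on each summit. The first 4 regions had summits about 200 bp apart and are shown as 1 continuous stretch, and the last 3 had summits 590 to 900 bp apart and are shown as 1 window per summit, reaching 50 bases to either side. Regions whose windows touched an annotated untranslated region of a protein-coding transcript are not shown.
CG9663 intron (chr2L:3302153-3302452, plus strand): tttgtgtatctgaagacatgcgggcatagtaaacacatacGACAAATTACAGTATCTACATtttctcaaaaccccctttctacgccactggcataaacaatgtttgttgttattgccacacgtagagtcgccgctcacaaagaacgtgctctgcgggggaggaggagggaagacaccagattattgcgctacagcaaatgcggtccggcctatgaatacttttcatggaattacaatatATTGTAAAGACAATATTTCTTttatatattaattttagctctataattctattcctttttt
Upstream of CG43389 (chr3L:3246456-3246755, plus strand): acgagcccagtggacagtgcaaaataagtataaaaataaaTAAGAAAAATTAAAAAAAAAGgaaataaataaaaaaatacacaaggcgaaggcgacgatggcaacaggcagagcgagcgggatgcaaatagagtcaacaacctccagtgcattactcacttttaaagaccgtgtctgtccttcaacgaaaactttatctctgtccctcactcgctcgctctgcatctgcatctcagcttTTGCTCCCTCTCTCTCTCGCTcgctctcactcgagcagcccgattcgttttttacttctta
Eip74EF promoter and intron (chr3L:17576981-17577280, plus strand): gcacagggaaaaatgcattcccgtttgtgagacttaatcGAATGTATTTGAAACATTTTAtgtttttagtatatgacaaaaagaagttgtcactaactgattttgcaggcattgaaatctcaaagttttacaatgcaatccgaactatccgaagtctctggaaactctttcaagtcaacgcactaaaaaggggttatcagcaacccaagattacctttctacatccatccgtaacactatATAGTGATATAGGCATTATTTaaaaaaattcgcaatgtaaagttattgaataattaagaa
nej (chrX:9686003-9686301, plus strand): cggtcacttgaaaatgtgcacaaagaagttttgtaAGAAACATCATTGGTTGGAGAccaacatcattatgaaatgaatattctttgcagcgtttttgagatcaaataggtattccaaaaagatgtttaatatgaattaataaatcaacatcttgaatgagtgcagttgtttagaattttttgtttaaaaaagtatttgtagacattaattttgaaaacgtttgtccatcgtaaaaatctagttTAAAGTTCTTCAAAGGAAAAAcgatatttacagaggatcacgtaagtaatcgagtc
dpp intron, stronger summit (chr2L:2433590-2433690, plus strand): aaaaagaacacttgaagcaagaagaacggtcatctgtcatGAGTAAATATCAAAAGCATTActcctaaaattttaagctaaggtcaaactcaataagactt
dpp intron, weaker summit (chr2L:2433000-2433100, plus strand): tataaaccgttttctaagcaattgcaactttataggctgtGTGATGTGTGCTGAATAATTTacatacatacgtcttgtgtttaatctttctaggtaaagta
trx intron, stronger summit (chr3R:14278022-14278122, plus strand): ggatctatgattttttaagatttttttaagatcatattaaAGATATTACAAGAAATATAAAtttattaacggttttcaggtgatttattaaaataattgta
trx intron, weaker summit (chr3R:14278655-14278755, plus strand): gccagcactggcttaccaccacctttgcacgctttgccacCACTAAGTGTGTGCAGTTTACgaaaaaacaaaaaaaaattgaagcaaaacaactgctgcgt
lncRNA:Vinr exon, stronger summit (chrX:12751279-12751379, plus strand): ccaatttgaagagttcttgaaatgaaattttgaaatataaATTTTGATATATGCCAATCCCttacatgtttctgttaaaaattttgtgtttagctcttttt
lncRNA:Vinr exon, weaker summit (chrX:12750379-12750479, plus strand): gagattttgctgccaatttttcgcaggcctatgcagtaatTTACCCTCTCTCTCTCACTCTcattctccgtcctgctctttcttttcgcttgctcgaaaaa

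Most summits within a region were listed close to the smallest distance that the lists hold. Over the 329 pairs of adjacent summits, the median spacing was 204 bp, with an upper quartile of 219 bp. In 227 pairs (69.0%, 95% exact binomial interval 63.7 to 74.0%) the summits were 199 to 210 bp apart, and 45 of these were exactly 199 bp apart. No pair was closer. A distance of 199 bp was also the smallest between any 2 summits in the pooled list and in the list of each replicate, so the lower end of the spacings is shared by all 4 lists. The CG9663 intron and the region upstream of CG43389, both printed above, were at this limit, as were 44 regions in all. The sources used here do not say whether the caller sets a minimum distance between summits. Whether such a minimum gives the many spacings of 199 to 210 bp was not tested, so they describe the lists and not the spacing of binding sites.

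Above this limit pairs became fewer with distance up to 300 bp, and few were 301 to 500 bp apart. The ranges given here are bins chosen for counting. A further 58 pairs were 211 to 250 bp apart and 18 were 251 to 400 bp apart. The remaining 26 were 401 to 900 bp apart, and 23 regions of 2 summits had them more than 500 bp apart. The same scarcity at 301 to 500 bp appeared when every neighbouring pair of summits in the IDR list was counted, whether or not the intervals overlapped. That list had 358 neighbours 199 to 300 bp apart, 11 at 301 to 400 bp, 8 at 401 to 500 bp and 588 at 551 to 800 bp. Neighbours 301 to 500 bp apart were thus scarce on both sides of the rule for membership. The pooled list had 4346 neighbours at 199 to 300 bp, 275 at 301 to 400 bp and 282 at 401 to 500 bp, and 4441 at 551 to 800 bp.

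**Figure D1:**
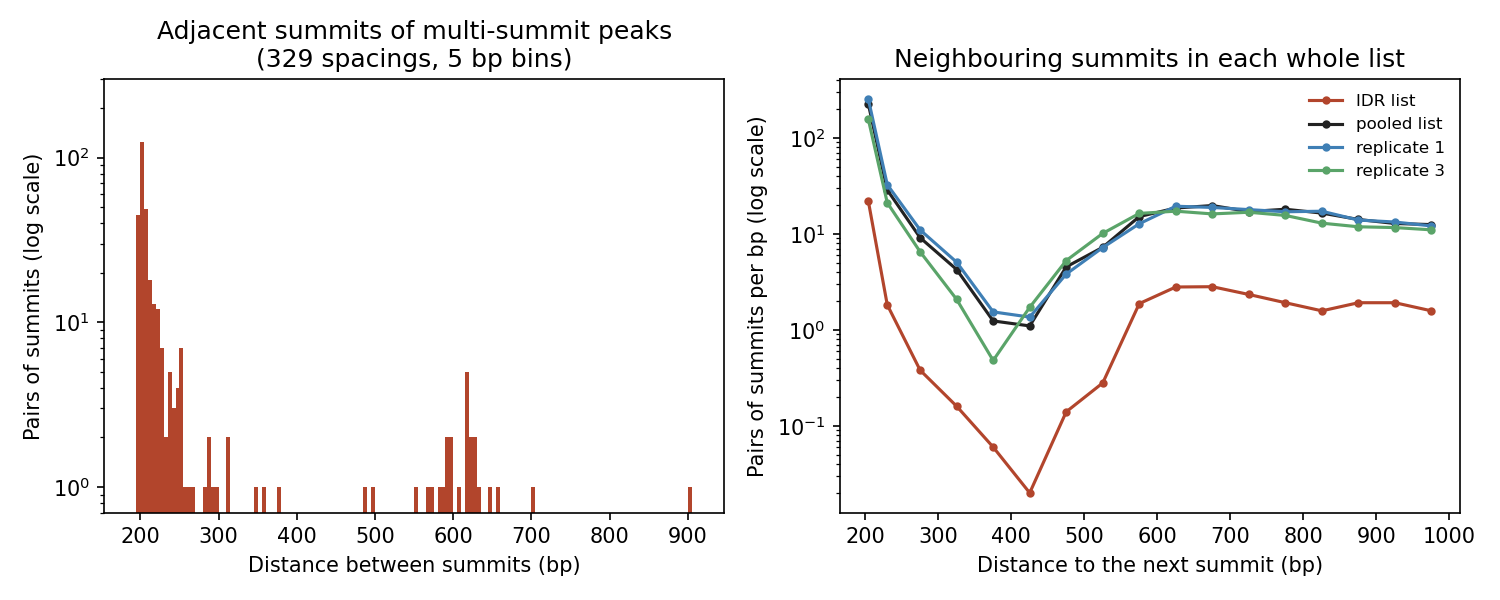
Left, number of adjacent summit pairs of multi-summit peaks (log scale) against their distance in bp, in 5 bp bins. Right, pairs of neighbouring summits per bp (log scale) in the IDR, pooled, replicate 1 and replicate 3 lists: each curve starts at 199 bp, dips near 400 bp and levels off above 550 bp.

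The intervals overlapped in several ways. In 110 regions all peaks had the same interval, so the caller had placed several summits in 1 interval. In 31.8% of regions the intervals were offset and none was 400 bp wide, the most frequent width in the IDR list (27.9% of its peaks) and in the pooled list (78.2%). Another 90 regions held at least 1 interval of that width, and in 17 every interval had it. Overlap between 2 such intervals follows from any summit spacing under 400 bp, so in these 17 regions it adds nothing to the spacing. Median spacing was alike over the 4 kinds, at 203, 207, 202 and 202 bp in that order. Merged regions had a median width of 535 bp and ranged from 283 to 1720 bp.

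At the edge of the rule, 12 neighbouring pairs overlapped by 1 to 10 bp and 14 missed each other by at most 10 bp. The summits were 199 to 646 bp apart (median 225.5 bp) in the overlapping pairs, against 200 to 649 bp (median 204.5 bp) in the pairs just outside. Pairs on both sides of the limit therefore covered nearly the same spacings.

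The widest spacing belonged to the exon of lncRNA:Vinr, a long noncoding RNA gene on X, where the summits were 900 bp apart. They were 900 bp apart in replicate 1 and 950 bp apart in replicate 3. Its stronger summit had the highest signal of all multi-summit peaks, 6258, and ranked 10 in the IDR list, whereas the weaker had 398.1. Signal is the authors' own value for a peak, in units the sources do not name, and it ranks peaks within 1 list. In replicate 1 the stronger and weaker summits had signals of 3929 and 309.2, and in replicate 3 signals of 2194 and 90.4. The same summit was thus far stronger in every list. On the same arm, the exon of lncRNA:CR44619 held another wide pair, 592 bp apart, with signals of 2846 and 368.8.

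Summits more than 250 bp apart were found in 34 regions of 2 summits. Those at dpp, trx and ph-p are described as among the strongest in introns or at promoters. The pair at the promoters of CG44286, CG8788 and alc, 599 bp apart, was stronger than that in trx, with signals of 2797 and 1118. An intron of dpp, which encodes a BMP-type signalling ligand, had summits 590 bp apart with signals of 3638 and 1052. In the printed windows both dpp summits were equally poor in G and C (31.7%), while a window of the same size at their midpoint held 68.3%. An intron of trx, the gene of the Trithorax histone methyltransferase, had summits 633 bp apart with signals of 2648 and 349.7. Its spacing was 704 bp in replicate 1 and 557 bp in replicate 3, a larger difference than at dpp (622 and 579 bp). At ph-p, one of 2 neighbouring polyhomeotic genes that encode subunits of a Polycomb complex, the summits were 617 bp apart with signals of 5190 and 3571. These ph-p summits lay between alternative starts of the gene, 475 bp upstream of one and 424 bp downstream of another.

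The neighbouring ph-d gene had 3 summits spanning 783 bp, with signals of 1504, 802.7 and 513.2. Replicate 3 had a match for all 3 of them and replicate 1 for 2. In replicate 1, 1 of these matches lay between the 2 stronger IDR summits, so it did not separate them. The only region of 4 summits lay at and upstream of the promoter of CG12643 on X and spanned 798 bp, with signals of 789.5, 667.9, 542.2 and 436.9. There, too, replicate 3 had 4 summits and replicate 1 had 2, of which 1 lay between the 2 strongest IDR summits. Of the 10 regions with 3 or 4 summits, 7 had every summit matched in replicate 1, 4 in replicate 3 and 1 in both, near tara.

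Within a region the summits were usually unequal. Over the 308 regions of 2 summits, the weaker had a median of 0.477 of the signal of the stronger (quartiles 0.295 and 0.683, range 0.0636 to 0.986). The weaker summit reached more than 0.5 of the stronger in 142 regions and less than 0.2 in 29. Regions whose strongest summit was above the median had a lower ratio (median 0.301, 155 regions of 2 summits) than the rest (0.606, 153 regions). All members had to reach the lowest signal of the list, which keeps the ratio of a weak region high. Ratios were lowest where 1 interval held both summits (median 0.359) and highest where both intervals were 400 bp wide (0.707).

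The strongest close pair was in an intron of CG9663, with summits 199 bp apart and signals of 5302 and 4068. Replicate 1 gave the same summits signals of 3272 and 2369 at a spacing of 202 bp, and replicate 3 gave 1974 and 1552 at 208 bp. Both summits of this pair were strong in every list. The most unequal close pairs lay upstream of scyl, the gene of an inhibitor of TOR signalling, and in an intron of Hr4, a nuclear receptor gene of the ecdysone response. Near scyl the signals were 2066 and 169.9 at 199 bp, and in Hr4 they were 2132 and 169.2 at 204 bp. In both regions replicate 3 had no match for the weaker summit. The most equal pair, in an intron of arr, a Wingless co-receptor gene, had signals of 696.9 and 687.3 at 225 bp. Each replicate had a single summit there, and it was over 100 bp from both IDR summits.

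**Figure D2:**
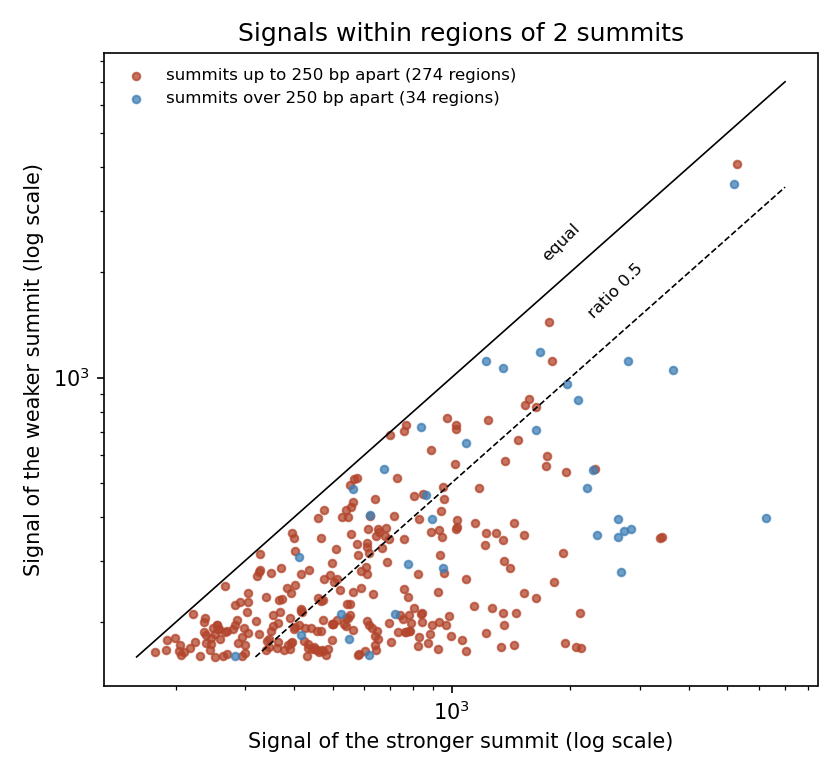
Signal of the weaker against that of the stronger summit (log scales, authors' units) for the 308 regions of 2 summits, with lines at equal signal and at a ratio of 0.5. Regions with summits over 250 bp apart (34 regions) include many of the strongest, whereas those up to 250 bp apart (274 regions) spread down to the lowest signal of the list.

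Signals of multi-summit peaks covered nearly the whole range of the IDR list. Their median was 368.8 (quartiles 213.9 and 659.6), against 324.9 (218.6 and 603.9) for the other IDR peaks. When the list ranked on signal was split into 10 equal parts, multi-summit peaks made up 5.54% to 9.55% of each, and they were 8 of the 100 strongest IDR peaks. These distributions overlap almost fully and were not tested, because peaks of 1 list are not replicates. By chromosome arm the shares were 5.96% of IDR peaks on 2L, 9.56% on 2R, 7.53% on 3L, 6.57% on 3R, 7.69% on 4 and 8.80% on X. Arm 4 rests on 26 IDR peaks, and the other arms on 1465 or more.

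Both replicates placed a summit within 100 bp of 78.7% of multi-summit peaks (75.3 to 81.8%), against 94.0% (93.4 to 94.5%) of the other IDR peaks. Over the whole IDR list the share was 92.8%. For replicate 1 alone the shares were 93.0% of multi-summit peaks and 96.8% of the other IDR peaks, and for replicate 3 alone 84.7% (81.7 to 87.4%) and 97.03% (96.6 to 97.4%). Intervals cover counting error only, and 2 summits of a region share their reads, so the difference was not tested. Within 2-summit regions the stronger summit was matched in both replicates in 82.8% of cases and the weaker in 76.3%. Every summit of a region was matched in both replicates in 189 of 318 regions (59.4%, 53.8 to 64.9%).

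Regions that were not fully matched mostly had a single summit in the replicate. In replicate 1 all 38 such regions of 2 summits had 1 summit, which lay between the 2 IDR summits in 28 of them. In replicate 3 there were 88 such regions, and 84 of them had 1 summit. This lone summit lay between the IDR summits in 67 of the 84 regions. The Eip74EF region printed above belongs to an early ecdysone response gene that encodes an ETS-type transcription factor, and it had IDR signals of 440.5 and 192.7. Replicate 1 had both summits at the same spacing, whereas replicate 3 had 1 summit between them. Resolving a pair thus differed between the replicates at such sites.

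Where both replicates resolved both summits, the spacing was nearly the same in most regions. Over 188 such regions the replicates differed by a median of 4 bp (interval of the median 3 to 5 bp, upper quartile 14.25 bp, largest 162 bp). Of 135 regions with an IDR spacing of 199 to 210 bp, 120 had a spacing in that range in replicate 1 and 123 in replicate 3, and their median difference was 3 bp. This range starts at the smallest distance any list holds, so spacings there had little room to differ. The difference was 10.5 bp in 28 regions with a spacing of 211 to 250 bp and 31 bp in 25 regions with a wider one. Of those 28 regions, 13 had a spacing of 199 to 210 bp in replicate 1 and 17 in replicate 3. Many IDR spacings of 211 to 250 bp were thus nearer the smallest distance in a replicate. Of the 23 regions over 500 bp, 23 were over 500 bp in replicate 1 and 21 in replicate 3, the other 2 having no full match there. Each summit had to match within 100 bp and spacings of 301 to 500 bp were scarce in every list, so wide pairs too had little room to differ in class.

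**Figure D3:**
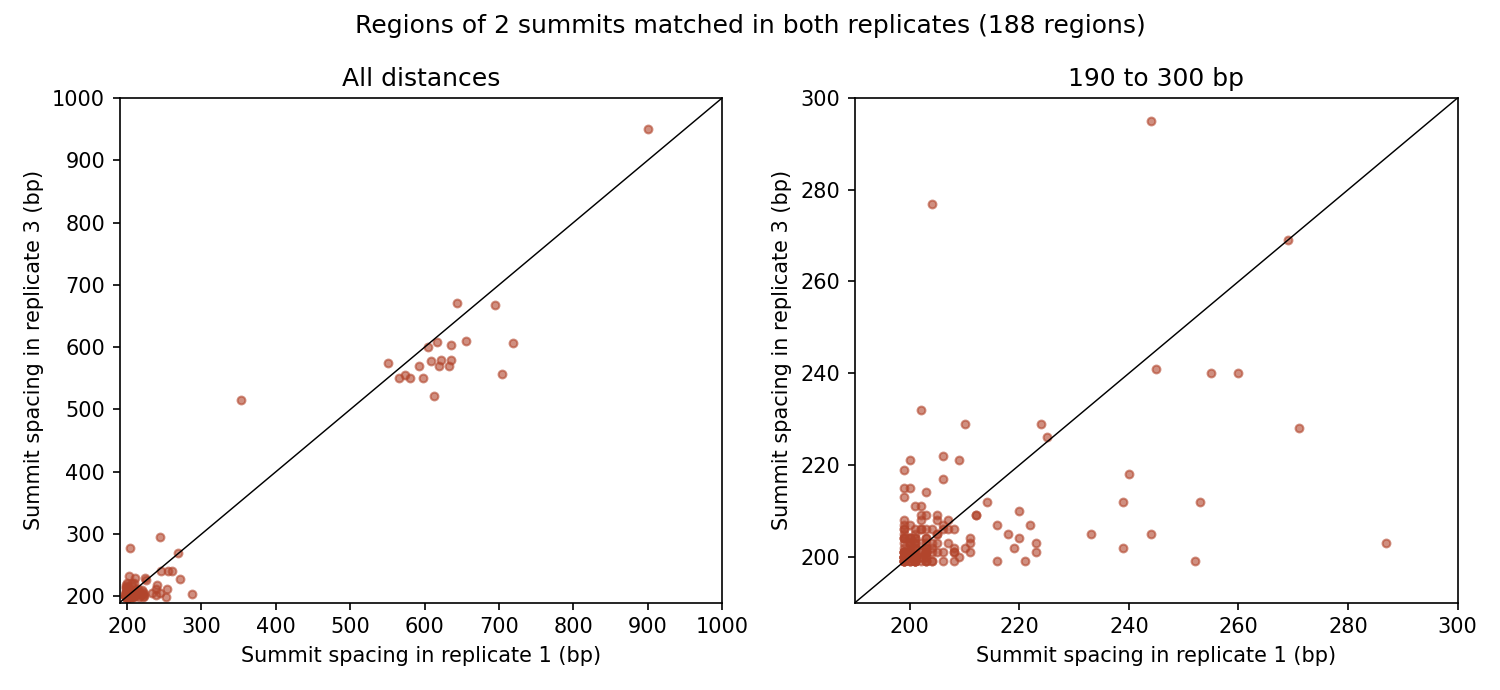
Summit spacing in replicate 3 against replicate 1 (bp) for the 188 regions of 2 summits matched in both, over all distances (left) and up to 300 bp (right), with the line of equal spacing. Most regions sit in the corner at 199 bp, and a separate group lies above 500 bp in both replicates.

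The order of the summits was also shared. The same summit was strongest in both replicates in 185 of the 188 regions (98.4%, 95.4 to 99.7%), and in each of these it was the strongest in the IDR list too. The IDR list comes from both replicates pooled, and the 188 regions were chosen by their match to it. Agreement with the list and between the replicates is therefore partly built in and was not tested. The 3 exceptions were at CG15628, near Pex7 (a peroxisomal import receptor gene) and in an intron of ftz-f1, the gene of a nuclear receptor. Near Pex7 the 2 summits had signals of 474.9 and 724.0 in replicate 1, and 639.1 and 490.3 in replicate 3. Their IDR signals were close, at 838.2 and 723.3 for CG15628, 1222 and 1115 near Pex7, and 562.1 and 480.4 in ftz-f1.

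Multi-summit peaks, like the other IDR peaks, lay mostly at promoters, in introns and in intergenic DNA. A summit within 500 bp of any transcription start site (TSS) was counted as promoter. By that measure 267 of 647 member summits (41.3%, 37.4 to 45.2%) were at promoters, against 36.2% (35.1 to 37.3%) of the other IDR peaks and 36.6% of all IDR peaks. Introns held 38.3% of member summits (34.6 to 42.2%) and 42.6% of the others, and intergenic DNA 17.9% and 18.6%. Only 1 member summit fell in a coding exon. Members of a region share their position, so these shares were not tested. In 280 of 318 regions all summits were of 1 class: 36.2% of all regions lay wholly at promoters, 34.9% in introns and 15.7% in intergenic DNA.

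**Figure D4:**
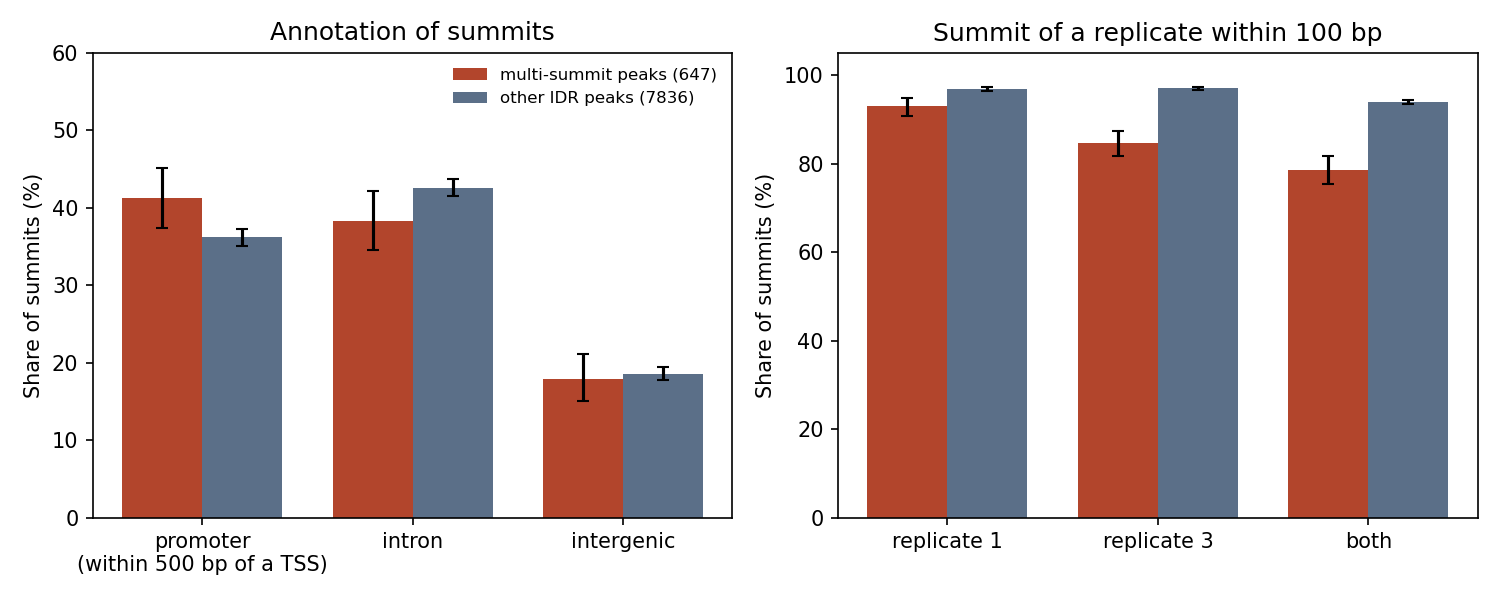
Shares (%) of multi-summit peaks (left bars, 647) and of the other IDR peaks (right bars, 7836) by annotation of the summit (left) and with a summit of replicate 1, of replicate 3 or of both within 100 bp (right). Error bars are 95% exact binomial intervals, and the widest gap for a single replicate is in replicate 3, at 84.7% for multi-summit peaks.

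A TSS fell between the outer summits in 23 of the 147 regions with a promoter summit (15.6%, 10.2 to 22.5%), which is 7.23% of all 318 regions (4.64 to 10.7%). Over the overlapping peaks of the whole pooled list it did so in 14.8% of regions. Of 59 regions of 2 summits assigned to the same protein-coding TSS, 42 had both summits upstream, 10 both downstream and 7 had 1 on each side. The stronger summit was the closer one in 34 of the 59. Its median position was 186 bp upstream of the TSS, and its quartiles were 255 and 41.5 bp upstream. At puc, which encodes a phosphatase that restrains JNK signalling, the summits were 659 bp apart with a TSS between them. The stronger summit (signal 2648) lay 9 bp upstream of the nearest start, and the weaker (394.3) lay 650 bp downstream.

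Of the 171 regions with no promoter summit, 111 had all summits in introns and 50 had all of them between genes. Their nearest protein-coding TSS was a median of 4112 bp away (quartiles 1800 and 7838 bp). In 75 of them it was more than 5 kb away. The strongest region of this kind between genes lay upstream of CG43389 (signals 3411 and 350.4). The next 2 are named for the nearest gene, CG18404 (2691 and 278.1) and Ids, a sulfatase gene (2210 and 483.6). The weaker summit of the first of these lay 11884 bp from the TSS of CG18404, while its stronger summit was nearest to heca. The Ids summits lay 16732 and 17313 bp from the TSS of Ids. Upstream of CG43389, replicate 1 had both summits, with signals of 2718 and 236.9, and replicate 3 had the stronger alone, at 720.0.

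Of 13945 protein-coding genes, 190 (1.36%) had a multi-summit peak within 500 bp of a TSS, while 3426 had any IDR summit there. Genes of 6 lists were then counted. Of 46 genes for chromatin and insulator proteins, 4 had a multi-summit peak and 28 any IDR summit. These 4 were ph-p, ph-d, nej (the CBP acetyltransferase) and Su(z)12 (a subunit of the Polycomb complex that methylates histone H3). The nej pair printed above was 208 bp apart with signals of 416.5 and 274.4, and it was resolved in replicate 1 (203 bp) and in replicate 3 (214 bp). At Su(z)12 the summits were 199 bp apart, on either side of a TSS, with signals of 382.9 and 250.3.

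Among 47 signalling genes, 25 had any IDR summit and 2 had a multi-summit peak: spi, an EGF-type ligand gene, and tkv, a receptor gene for the Dpp ligand. The spi summits had signals of 1333 and 169.6, while the weaker tkv summit had 172.4, or 0.841 of the stronger. Both tkv intervals were 400 bp wide, and replicate 1 had a single summit there. Of 63 homeotic and patterning genes, 15 had any IDR summit and 2 a multi-summit peak, namely dan and so, transcription factor genes with roles in eye or antenna development. Of 36 ecdysone genes, 17 had any IDR summit within 500 bp of a TSS and 1, Eip74EF, had a multi-summit peak there. This count leaves out introns farther from a TSS, such as those of Hr4 and ftz-f1. Of 73 genes for mitochondrial ribosomal proteins 2 had a multi-summit peak (mRpL2 and mRpS22) and 37 any IDR summit. Of 122 cuticle protein genes 0 had a multi-summit peak, and 2 had any IDR summit. Counts this small do not set any list apart.

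DNA at the stronger summits was poor in G and C, and in close pairs this continued through the DNA between the summits. Over the 274 regions with summits up to 250 bp apart, median GC content within 50 bases of each point was 29.7% at the stronger summit, 29.7% at the midpoint and 38.6% at the weaker summit. At the same distance from the stronger summit as the midpoint, but on the far side, it was 41.6%, and at that of the weaker summit 45.5%. The midpoint was lower than its counterpart on the far side in 194 of 274 regions (70.8%). Around the other IDR peaks the median was 30.7% at the summit, 40.6% at 102 bp to either side and 45.5% at 204 bp. The 6 arms as a whole held 42.2%. Over all 647 member summits together the median was 32.7%.

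Pairs more than 250 bp apart had another shape. Over these 34 regions the medians were 29.2% at the stronger summit, 44.6% at the midpoint and 33.7% at the weaker summit. The midpoint was above both summits in 20. On the far side of the stronger summit the median was 45.5% at the distance of the midpoint and 42.6% at that of the weaker summit. The midpoint was lower than its counterpart on the far side in 19 of 34 regions, so it was near that flanking DNA and not raised above it. Each replicate's own 8483 strongest peaks were then used. For close pairs the midpoint had a median of 30.7% in replicate 1 (343 regions) and 27.7% in replicate 3 (229 regions). For wide pairs it had 45.5% in replicate 1 (52 regions) and 38.6% in replicate 3, which had only 5. The midpoint of wide pairs was above both summits in 38 of the 52 regions of replicate 1 but in only 2 of the 5 of replicate 3, too few to show the shape there. Some of the close pairs printed above departed from the medians of close pairs. In the CG9663 stretch the midpoint held 51.5%, against 38.6% at the stronger and 25.7% at the weaker summit. In the Eip74EF stretch it held 38.6%, against 31.7% and 27.7% in that order. Upstream of CG43389 it held 46.5%, above the stronger summit (30.7%) but below the weaker (53.5%). The nej stretch, also a close pair, did not depart in this way: its midpoint held 21.8%, below both summits (33.7% and 30.7%).

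**Figure D5:**
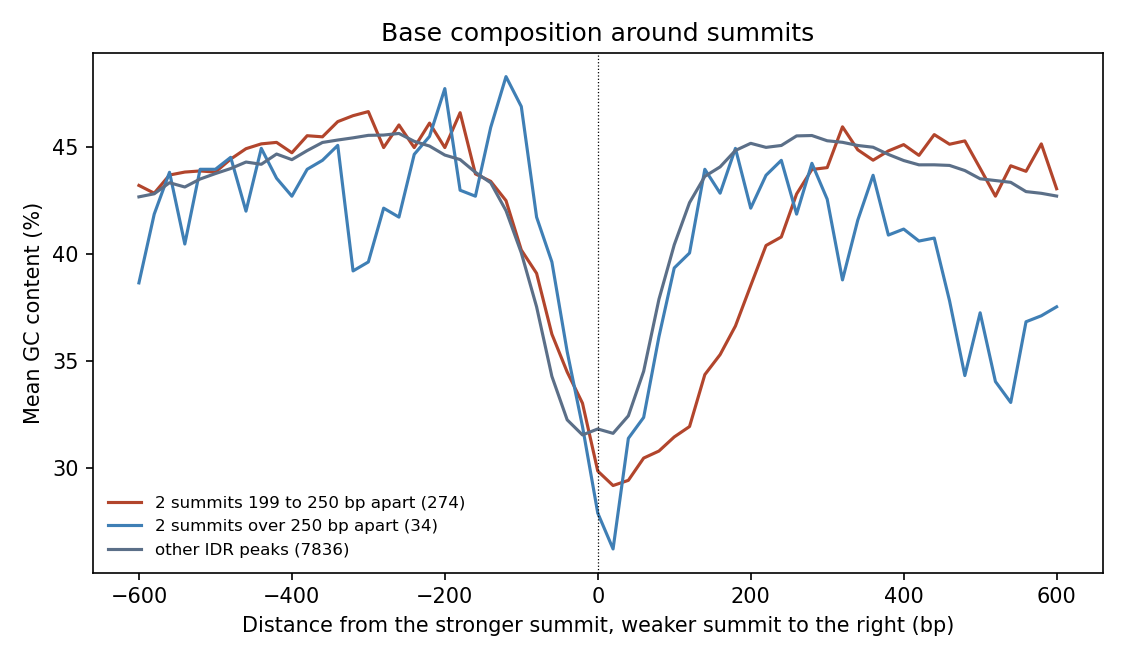
Mean GC content (%) in 21-base windows against distance (bp) from the stronger summit, turned so that the weaker summit is to the right, for close pairs (274), wide pairs (34) and the other IDR peaks (7836, not turned). At 100 bp to the right, close pairs average 31.4%, wide pairs 39.4% and other IDR peaks 40.4%.

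Of 15 short sequence strings searched on both strands within 50 bases of each summit, none marked most members. GAGAG, the core bound by GAGA factor, was present at 12.5% of member summits (10.1 to 15.3%), against 9.51% (8.87 to 10.2%) of the other IDR summits and 9.74% of all. Within 2-summit regions it was at 14.9% of weaker and 10.4% of stronger summits, and 9 regions had it at all their summits. It can be read as CTCTC in the capitals of the weaker summit upstream of CG43389 and of the weaker summit in lncRNA:Vinr, where the stronger summits lacked it. TATAAA, the core of the TATA box, was at 20.6% of member summits (17.5 to 23.9%), 24.9% of the others and 24.5% of all. Within 2-summit regions it was at 24.0% of stronger summits (19.4 to 29.2%), near the share of the others, and at 17.9% of weaker summits (13.7 to 22.6%). AGGTCA, a half-site of ecdysone receptor type, was at only 5 member summits (0.773%, 0.251 to 1.79%), 1.81% of the others and 1.73% of all. Summits of a region are not independent and 15 strings were searched, so the intervals do not set any string apart. These 3 strings are printed because the interval of the members' share left out the share in the other IDR peaks. For the remaining 12 it held it. They were the strings TATCGATA with its inner CGATA, the string GGTCACACT, the E-box forms CACGTG and also CAGCTG, the AP-1 form TGANTCA, the GATA-type GATAAG, the Zelda-type CAGGTA, the repeats ACACACAC or AAAAAAAA or TATATATA, and the Polycomb-related GCCAT. A match describes letters and not binding, and the differences were not tested.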

How the data were processed

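ChIP-seq peaks of GFP-tagged CG15710 were deposited as 4 narrowPeak lists on build dm6, per the file headers: 1 for each of 2 replicates, 1 pooled and 1 IDR list. For the aligner, peak caller and IDR threshold, names and settings were not given in the sources used here. Peak signal, deposited by the authors, has no stated scale and was used only within a list. The deposited −log10 q-value was not used, and neither were other columns or files. The 8483 IDR peaks were the strongest of the 30000 pooled peaks.

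Summits were start plus offset. Overlapping intervals were merged, and replicate summits were matched within 100 bp, nearest first and 1 to 1. Genes came from Ensembl release 115 and sequence from the RefSeq copy of the same assembly. Python 3.11.15, numpy 2.4.6, pandas 2.3.3, scipy 1.17.1 and matplotlib 3.10.9 were used, and the merging and matching were tested on simulated data. With 1 group, results are descriptions with 95% exact Clopper-Pearson intervals. The count for 1 further gene list is not reported here. Members, gene lists and motifs were chosen with earlier results of these data known. Regions were named for highest signal, for largest and smallest spacing (ties at 199 bp broken by signal), for most and least equal signals, for 4 summits, as the 3 strongest per annotation class, or for a listed gene. Other named regions (puc, tara, CG15628, Pex7 and ftz-f1) were chosen after their values were seen.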

Additional observations from a re-analysis of the deposited data

How the results depend on the processing

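The 10 results were recomputed under 71 alternatives, and 39 moved by more than the spread between the replicate lists, the interval of the share or, for counts, 1.5 times. That spread is the standard deviation of only 2 values. For the share of regions with a TSS between summits it was 0.0732 points, so every alternative of that result counted as moved. Restricting the list to its 4241 strongest peaks gave 208 multi-summit peaks in about 1.0e+02 regions, a median spacing of 207 bp, a signal ratio of 0.548, 43.8% of summits at promoters and 5.94% of regions with a TSS between summits. Under it 73.3% of regions were fully matched and 94.5% had the same strongest summit. Requiring 50 bp of overlap gave 43.4% at promoters and 6.95% with a TSS between. Requiring an overlap of 0.5 of the narrower interval gave 350 peaks in 174 regions, a ratio of 0.416, 6.32% with a TSS between and a median GC content of 34.7%. Joining intervals up to 50 bp apart gave a ratio of 0.511, 39.8% at promoters and 6.5% with a TSS between. All pooled peaks gave 8745 peaks in 4240 regions, a spacing of 206 bp, 37.4% at promoters, 14.8% with a TSS between and 40.6% GC. Promoter windows of 250 and 1000 bp gave 25.3% and 52.9%, a GC window reaching 100 bp to either side gave 34.8%, and matching within 50 bp gave 51.6% of regions fully matched.

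With 1 replicate left out, the other's own strongest 8483 peaks gave 471 to 814 peaks in 235 to 403 regions, spacings of 202 to 204 bp, ratios of 0.458 to 0.483, 41.2% to 42.5% at promoters, 8.09% to 8.19% with a TSS between and 32.7% to 34.7% GC. Leaving out regions that hold a 400 bp interval, an alternative chosen after seeing the data, gave 430 peaks in 211 regions, a ratio of 0.403, 39.1% at promoters and 7.11% with a TSS between. Median spacing stayed within 202 to 207 bp under every alternative. The cause of the shifts was not tested, beyond the alternatives that by construction count fewer or more peaks. No paired analysis was possible because all samples belong to 1 group. The lists hold no depth, and spacings below 199 bp cannot be seen in them.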

Other observations

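Weaker pooled peaks, outside the IDR list, overlapped 15 of the 318 multi-summit regions (4.72%, 2.66 to 7.66%) and 1393 of the 7836 other IDR peaks (17.8%, 16.9 to 18.6%). Peaks outside the multi-summit set are therefore not all single in the pooled list, where 29.2% of 30000 peaks overlapped another. The replicate lists held 33.1% overlapping peaks in replicate 1 and 20.2% in replicate 3, and the most frequent peak width was 404 bp in replicate 1 and 376 bp in replicate 3. Of neighbouring multi-summit regions, 32 pairs were within 10 kb, among them the wide pairs in the exons of lncRNA:Vinr and lncRNA:CR44619 on X. No such count was made for the other IDR peaks, so it says nothing of clustering.

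Several pairs with a TSS between their summits were within 500 bp of starts of more than 1 gene, such as Hat1 and Rpn5 (signals 473.9 and 266.2), Brf and sds22 (1570 and 866.8) and APP-BP1 and Irbp18 (1177 and 483.8). Hat1 encodes a histone acetyltransferase, Rpn5 a proteasome subunit and Brf a factor of RNA polymerase III initiation. The Brf and sds22 summits were 199 bp apart in the IDR list and in both replicates, which is the smallest distance any list holds. These regions were chosen after their values were seen.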
